A study of Mus musculus with 6 samples.

Results

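The genes that encode the constitutive proteasome were followed in mouse fibroblasts that carry a guide against pyruvate carboxylase (PC), a mitochondrial enzyme that makes oxaloacetate from pyruvate. The genes are those whose symbol starts with Psma, Psmb, Psmc or Psmd and a digit, without the immunoproteasome subunits Psmb8, Psmb9 and Psmb10 and without pseudogenes. That rule matched 37 annotated genes, of which 35 had a row among the 16540 genes of the deposited table; Psma8, known from testis, and Psmb11, known from thymus, had none. Of the 35 genes, 31 encode subunits of the 26S proteasome, 3 (Psmd5, Psmd9 and Psmd10) encode chaperones that help to assemble its base, and Psmc3ip shares only its name, since it encodes a recombination protein that binds a proteasome subunit. The cells were NIH-3T3, an established line of mouse embryonic fibroblasts. Polyclonal pools received a lentivirus with Cas9 and the guide PC sg2 (n = 2 libraries), the guide PC sg5 (n = 2) or, as the control, the guide R26 sg1 (n = 2), whose name points to Rosa26, a locus often used as a neutral target. All 3 groups were selected with 2 ug/mL puromycin and spent the last 48 h in DMEM with 0.2 mM glutamine and 10% dialyzed FBS, so the effect of low glutamine is not part of any comparison. Pools are not clones, and the share of their cells with an edited allele is not analysed here.

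The 26S proteasome is the protease that unfolds and cuts proteins tagged with ubiquitin. Its 20S core is a barrel of stacked rings: the outer alpha rings form the gate, and the inner beta rings hold the active sites of Psmb6 (caspase-like), Psmb7 (trypsin-like) and Psmb5 (chymotrypsin-like). The 19S particle caps the barrel, with a ring of ATPases (Psmc1 to Psmc6) that unfolds the substrate, large scaffold and ubiquitin-binding proteins in its base (Psmd1, Psmd2, Psmd4) and a lid around the deubiquitinase Psmd14. In mammalian cells with impaired proteasome activity, the transcription factor NRF1, encoded by Nfe2l1, is known to raise many of these genes through antioxidant response elements in their promoters. In cells exposed to interferon gamma, Psmb8, Psmb9 and Psmb10 take the places of Psmb5, Psmb6 and Psmb7 in newly made cores.

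RNA with a poly-A tail was sequenced, and the values are normalised counts, that is, read counts per gene divided by a size factor of the library. Recovered reads came to 63701586 and 46661048 with PC sg2, 48897258 and 22895172 with PC sg5, and 69337013 and 71710049 in the control, so the control libraries were also the deepest. Pcx, the mouse gene for pyruvate carboxylase, averaged 530.0 ± 215 normalised counts in the PC libraries (SD, n = 4) and 2964 ± 71.7 in the control (SD, n = 2), which is 17.9% of the control level. All 6 fibroblast markers looked up (Col1a1, Col1a2, Col3a1, Vim, Pdgfra and Thy1) were present, with a summed level of 487100 to 510420 in the PC libraries and 1172400 to 1221600 in the control. Of 8 markers of other cell types, 3 had a row: Lyz2 had 91.0 to 120.0 normalised counts in the PC libraries and 236 to 284 in the control, Cdh1 had 8.55 to 19.1 in the PC libraries and 57.4 to 58.7 in the control, and Pecam1 had 10.7 to 29.8 in the PC libraries and 10.4 to 13.8 in the control. The 10 most abundant genes took 5.04% to 5.14% of the counts in the PC libraries and 6.13% to 6.21% in the control. Whether these differences in depth, marker levels or abundant genes had a part in the results on the proteasome was not tested. In such bulk RNA, fewer cells of a type and less RNA per cell cannot be told apart. Nothing in the labels tells whether libraries with the same guide are separate cultures, and every p-value therefore measures only the spread between libraries, which may be technical.

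Of the 35 genes, 29 had a promoter window in RefSeq (build GRCm38.p6), which covers 250 bases before and 50 bases after the transcription start; Psma6 and Psmc2 had 2 windows each, which makes 31. Shown here are windows from both directions of change: the active-site subunits Psmb5 and Psmb6, whose windows hold the core of an antioxidant response element, the ATPases Psmc2 (its upstream window) and Psmc5 with the largest increases, and Psma2 and Psma7, the alpha subunits with the largest decreases. Psmb1, with the largest decrease of all, is named only. Capitals mark the antioxidant response element core TGACNNNGC in Psmb5 and Psmb6 and the CCAAT box in Psmc2, Psma2 and Psma7; the window of Psmc5 holds neither and is printed without capitals. The windows lie, in the order of the lines, at chr14:54617946-54618245 (minus strand), chr11:70525107-70525406 (plus strand), chr5:21785025-21785324 (plus strand), chr11:106255935-106256234 (plus strand), chr13:14612992-14613291 (plus strand) and chr2:180042415-180042714 (minus strand), and each is written 5′ to 3′ on the strand of its gene.
Psmb5: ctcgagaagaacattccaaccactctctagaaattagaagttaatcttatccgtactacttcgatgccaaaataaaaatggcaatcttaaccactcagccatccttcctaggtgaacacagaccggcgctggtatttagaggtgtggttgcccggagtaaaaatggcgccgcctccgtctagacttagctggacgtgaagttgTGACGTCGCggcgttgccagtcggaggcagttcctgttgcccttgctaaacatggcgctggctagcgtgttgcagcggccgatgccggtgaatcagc
Psmb6: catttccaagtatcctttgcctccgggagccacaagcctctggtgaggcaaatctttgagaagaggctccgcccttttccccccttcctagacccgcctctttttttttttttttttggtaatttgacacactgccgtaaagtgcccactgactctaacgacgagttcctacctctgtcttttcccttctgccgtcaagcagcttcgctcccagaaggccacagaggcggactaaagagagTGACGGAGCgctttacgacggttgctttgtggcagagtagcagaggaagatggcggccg
Psmc2: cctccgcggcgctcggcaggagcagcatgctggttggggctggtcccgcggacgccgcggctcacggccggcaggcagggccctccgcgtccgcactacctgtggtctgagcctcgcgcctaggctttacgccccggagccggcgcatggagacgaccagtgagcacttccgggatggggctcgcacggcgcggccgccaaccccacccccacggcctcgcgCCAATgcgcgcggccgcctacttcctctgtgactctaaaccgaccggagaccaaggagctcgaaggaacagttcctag
Psmc5: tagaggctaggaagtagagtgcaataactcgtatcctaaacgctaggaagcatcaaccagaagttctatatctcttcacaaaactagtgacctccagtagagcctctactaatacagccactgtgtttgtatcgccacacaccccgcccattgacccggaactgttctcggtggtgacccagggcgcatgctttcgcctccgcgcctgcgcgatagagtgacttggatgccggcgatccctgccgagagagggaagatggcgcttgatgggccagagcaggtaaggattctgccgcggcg
Psma2: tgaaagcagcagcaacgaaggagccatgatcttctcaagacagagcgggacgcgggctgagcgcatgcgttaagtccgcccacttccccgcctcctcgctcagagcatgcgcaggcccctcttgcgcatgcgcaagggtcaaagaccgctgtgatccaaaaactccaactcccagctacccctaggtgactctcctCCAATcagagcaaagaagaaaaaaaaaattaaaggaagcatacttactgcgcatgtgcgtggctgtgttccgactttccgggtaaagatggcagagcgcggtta
Psma7: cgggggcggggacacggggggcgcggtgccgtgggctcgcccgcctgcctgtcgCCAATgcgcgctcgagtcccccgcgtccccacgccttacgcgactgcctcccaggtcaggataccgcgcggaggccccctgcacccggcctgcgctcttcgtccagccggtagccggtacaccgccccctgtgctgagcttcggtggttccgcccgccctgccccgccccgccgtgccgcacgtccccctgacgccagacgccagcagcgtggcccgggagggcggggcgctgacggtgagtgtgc

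Motif matches were searched on both strands of the 31 windows and of all 32544 distinct mouse windows in the same table. The antioxidant response element core was present in 5 of the 31 windows (16.1%), those of Psmb5, Psmb6, Psmc6, Psmd12 and Psmd9, against 12.4% of all windows. Its first base lay at position -47 relative to the start in Psmb5 and at position -9 in Psmb6. A CCAAT box was present in 12 of the 31 windows (38.7%), against 37.4% of all windows, and 5 of those 12 belong to alpha subunits (Psma1, Psma2, Psma3, Psma6 and Psma7). The E-box CACGTG was present in the windows of Psma4 and Psmd9 (6.45%), against 7.17% of all windows. These shares are descriptions of short windows: a match is not a bound site, and no match says only that the letters are not in the window. All 5 genes with the antioxidant response element core had higher RNA in the PC libraries, as did 20 of the 29 genes with a window in all. Each of the 4 genes with a window and lower RNA (Psma2, Psma3, Psma7 and Psmd10) had a CCAAT box, as did 6 of the 20 genes with higher RNA.

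Against the control, most constitutive proteasome genes were slightly higher in cells with a PC guide, and most of the increases lay outside the alpha subunits. With both PC guides in 1 contrast, 22 of the 35 genes were higher (62.9%) and 6 were lower (17.1%), while 7 did not pass the threshold, an adjusted p under 0.05 by limma with Benjamini-Hochberg adjustment over all 16526 genes tested. Scaling the libraries without the 50 most abundant genes gave 24 higher and 3 lower. Among all genes tested, 34.3% were higher and 33.6% lower by the same rule (67.9% either way), and among the 8738 genes at least as abundant as Psmc3ip, the lowest of the 35, 47.3% were higher and 37.3% lower (84.6% either way). The changes were small: the median log2 fold change was 0.19, against -0.01 for all genes tested, and the range ran from -0.49 for Psmb1 to 0.87 for Psmc5. A change of at least 1.5-fold was reached by 2 of the 35 genes, the ATPases Psmc5 and Psmc2, and by 33.9% of all genes tested. The 6 lower genes were Psma2, Psma3, Psma7, Psmb1, Psmc3 and Psmd10, and the 7 not past the threshold were Psma4, Psma5, Psma6, Psmb2, Psmd1, Psmd3 and Psmc3ip.

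The subunit genes varied little between libraries. The tests, however, took most of their estimate of spread from genes of similar abundance (17.3 prior degrees of freedom, median, and 3 residual ones). For the 31 subunits, the SD over the 4 PC libraries was 0.554% to 4.66% of their mean, and the SD over the 2 control libraries was 0.0399% to 5.18% of theirs. All 4 PC libraries lay above both control libraries for 23 of the 35 genes, below both for 6, and overlapped with them for 6. Over all genes tested, 36.6% lay above in this way and 36.6% below. The plot of all 35 genes by library shows these separations gene by gene.

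**Figure D1:**
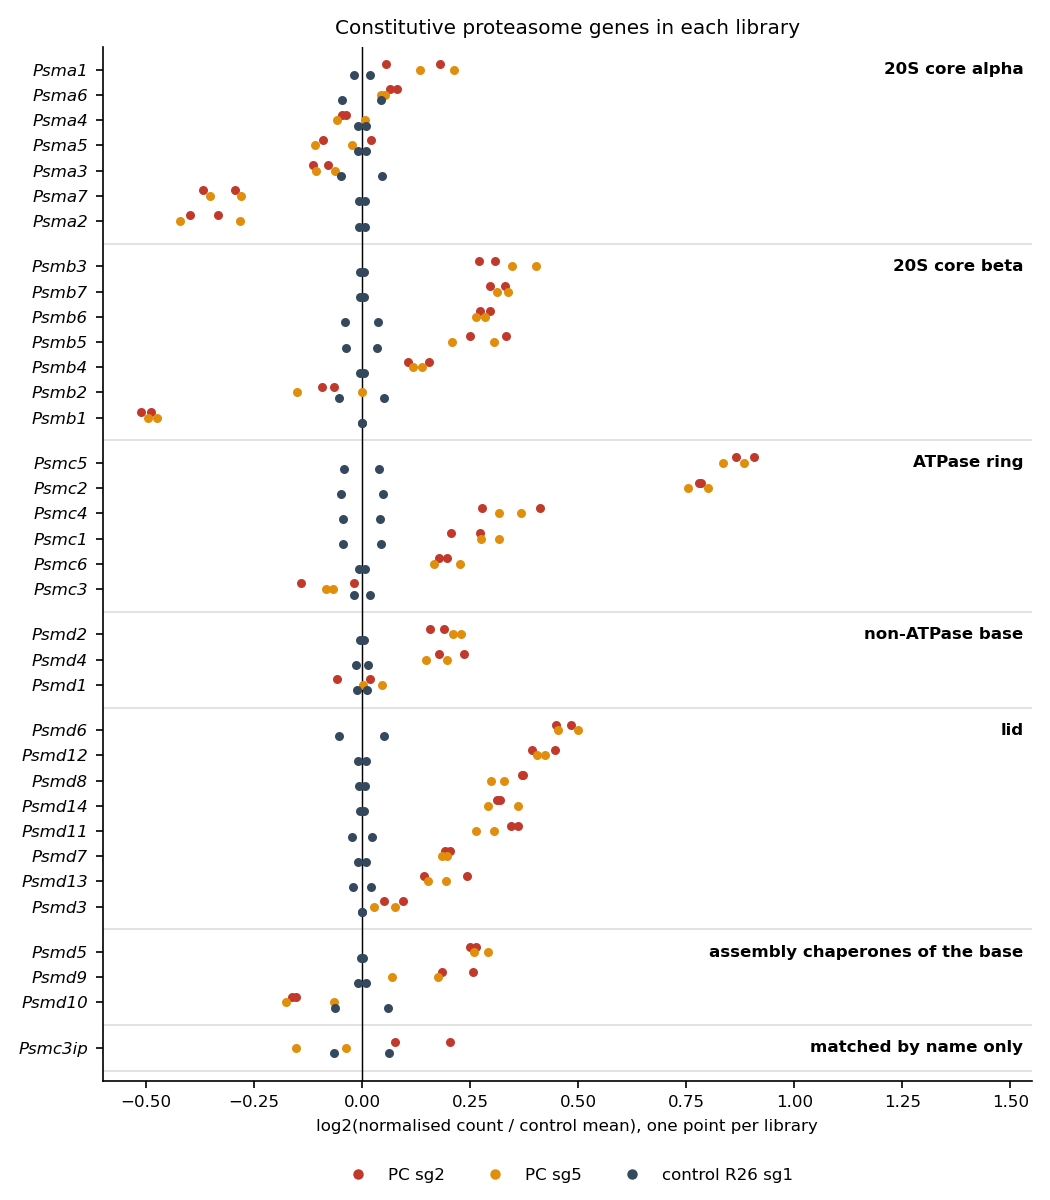
Each row is a gene of the constitutive proteasome and each point a library, placed on the horizontal axis by the log2 ratio of its normalised count to the control mean of that gene; red is PC sg2, orange PC sg5 and dark blue the control. Psmc5 and Psmc2 lie farthest to the right, Psmb1, Psma2 and Psma7 farthest to the left, and the points of both PC guides lie close together in nearly every row.

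The alpha subunits of the 20S core were the class with the most decreases. Of 7, 3 were lower (Psma2, Psma7 and Psma3), 1 was higher (Psma1) and 3 did not pass the threshold, with a median log2 fold change of -0.05. The lower genes made up 42.9% of the class, beside 33.6% of all genes tested and 37.3% of those at least as abundant as Psmc3ip. With PC sg5 alone, 2 of the 7 were lower. Psma2 had 3336 and 3189 normalised counts with PC sg2, 3457 and 3138 with PC sg5, and 4182 and 4223 in the control. All 4 PC libraries were below both controls by a wide margin, and the log2 fold change was -0.36 ± 0.04 (SE; adjusted p = 1.17e-07). Psma7 stood at 6379 and 6066 with PC sg2, 6448 and 6133 with PC sg5, and 7783 and 7864 in the control, again without overlap (log2 fold change -0.32 ± 0.03, adjusted p = 1.41e-08). Both genes encode ring subunits with no active site of their own. Psma1 was the exception in the other direction, with 4755 and 5183 normalised counts with PC sg2, 5022 and 5301 with PC sg5, and 4513 and 4633 in the control. Its lowest PC library was only slightly above the higher control (log2 fold change 0.15 ± 0.04, adjusted p = 0.00209), and without the intensity trend in the variance model the gene was no longer past the threshold (adjusted p = 0.0798, against 0.00209 with it).

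Psma3 was lower by a small amount that depended on single libraries, on the scaling and on the variance model. By limma it was at -0.05 (adjusted p = 0.255) with the libraries scaled without the 50 most abundant genes. Without the intensity trend its adjusted p was 0.151. Its 4 PC libraries ranged from 5735 to 5940.1 normalised counts, and its controls were 6404 and 5999. The log2 fold change of -0.09 (adjusted p = 0.0251) became -0.04 (adjusted p = 0.424) without control replicate 1, -0.08 (adjusted p = 0.0695) without PC sg2 replicate 1 and -0.08 (adjusted p = 0.0563) without PC sg5 replicate 1. Psma4, Psma5 and Psma6 had log2 fold changes of -0.03, -0.05 and 0.06, and in none of these genes did all 4 PC libraries lie on one side of both controls. Psma6 passed the threshold as higher without control replicate 1 (log2 fold change 0.11, adjusted p = 0.0390) and with the libraries scaled without the 50 most abundant genes (0.11, adjusted p = 0.00870), but was at 0.0161 (adjusted p = 0.774) without control replicate 2.

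Among the beta subunits, 5 of 7 were higher, 1 was lower and 1 did not pass the threshold, with a median log2 fold change of 0.27. The higher genes made up 71.4% of the class, beside 34.3% of all genes tested and 47.3% of those at least as abundant as Psmc3ip. The 3 active-site genes were all higher, and by similar amounts. Psmb5, the chymotrypsin-like site and the main target of the drug bortezomib, had 3683 and 3903 normalised counts with PC sg2, 3828 and 3580.3 with PC sg5, and 3177 and 3022 in the control (log2 fold change 0.27 ± 0.04, adjusted p = 4.80e-06). Psmb6, the caspase-like site, had 8382 and 8521 with PC sg2, 8333 and 8454 with PC sg5, and 7127 and 6756 in the control (0.28 ± 0.03, adjusted p = 4.47e-08). Psmb7, the trypsin-like site, had 8500.0 and 8293 with PC sg2, 8535 and 8392 with PC sg5, and 6778 and 6735 in the control (0.32 ± 0.03, adjusted p = 2.47e-09). In each of the 3 genes every PC library was above both controls, and the PC mean was 121%, 121% and 125% of the control mean for Psmb5, Psmb6 and Psmb7 in that order.

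The beta subunits without an active site moved in both directions. Psmb3 had the largest increase of the class, with 5821 and 5676 normalised counts with PC sg2, 6218 and 5987 with PC sg5, and 4720.0 and 4690.3 in the control (log2 fold change 0.33 ± 0.03, adjusted p = 8.91e-09). Psmb4 was higher by 0.13. Psmb1 had the largest decrease of all 35 genes, with 8477 and 8339 normalised counts with PC sg2, 8553 and 8437 with PC sg5, and 11880.3 and 11893 in the control. Its PC libraries and its controls each formed a tight cluster far from the other, and the PC mean was 71.1% of the control mean (log2 fold change -0.49 ± 0.03, adjusted p = 5.97e-13). Psmb2 had a log2 fold change of -0.08 with overlapping libraries (adjusted p = 0.159) and passed the threshold as lower in 1 of 16 alternatives, without PC sg5 replicate 1 (log2 fold change -0.11, adjusted p = 0.0302). With other single libraries left out, its value was between -0.13 without control replicate 2 (adjusted p = 0.0761) and -0.0230 without control replicate 1 (adjusted p = 0.770).

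The ATPase ring held the largest increases. Of its 6 genes, 5 were higher (83.3%) and 1, Psmc3, was lower, with a median log2 fold change of 0.31. Of all genes tested, 34.3% were higher, and 47.3% of those at least as abundant as Psmc3ip. Psmc5, which encodes Rpt6, had 10644 and 10958 normalised counts with PC sg2, 10778 and 10425 with PC sg5, and 6007 and 5679 in the control. Every PC library was far above both controls, and the mean rose to 10701 ± 225 in the PC libraries (SD, n = 4), against 5843 ± 232 in the control (SD, n = 2), a 1.83-fold difference (log2 fold change 0.87 ± 0.03, adjusted p = 2.58e-16). Psmc2, which encodes Rpt1, had 11985 and 11955 normalised counts with PC sg2, 12125 and 11746 with PC sg5, and 7196 and 6729 in the control, a 1.72-fold difference (0.78 ± 0.03, adjusted p = 1.30e-15). Psmc4, Psmc1 and Psmc6 followed with log2 fold changes of 0.34, 0.27 and 0.19, each with all PC libraries above both controls.

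**Figure D2:**
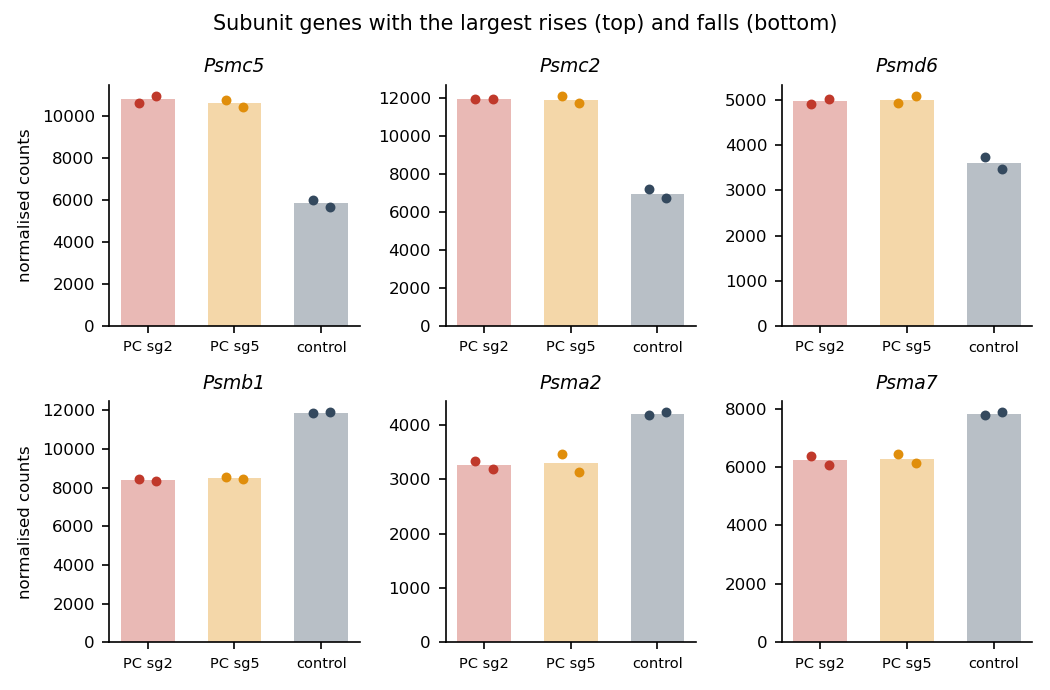
Normalised counts (vertical axes, from 0) of the subunit genes with the largest increases (top, Psmc5, Psmc2 and Psmd6) and decreases (bottom, Psmb1, Psma2 and Psma7), with a point per library and bars at the mean of the 2 libraries of a guide. In the top row all 4 PC libraries stand above both controls, and in the bottom row all 4 stand below.

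Psmc3, which encodes Rpt5, did not share in these increases. It had 8639 and 7944 normalised counts with PC sg2, 8359.9 and 8259 with PC sg5, and 8869.5 and 8640.3 in the control, so the highest PC library and the lower control nearly met. The decrease just passed the threshold (log2 fold change -0.08 ± 0.03, adjusted p = 0.0431) and was lost in 7 of 16 alternatives, with log2 fold changes of -0.11 to -0.03 over all 16. Without a single library it was lost for control replicate 1 (log2 fold change -0.06, adjusted p = 0.271), control replicate 2 (-0.10, adjusted p = 0.0673), PC sg2 replicate 2 (-0.05, adjusted p = 0.208) and PC sg5 replicate 2 (-0.07, adjusted p = 0.0697). The 6 ATPases are present once each in the assembled ring, while their RNA changes ranged from -0.08 to 0.87.

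In the non-ATPase part of the base, 2 of 3 genes were higher, beside 34.3% of all genes tested. Psmd2, the scaffold Rpn1 that binds ubiquitin-like domains, had 21679 and 22188 normalised counts with PC sg2, 22786 and 22521 with PC sg5, and 19387 and 19514 in the control (log2 fold change 0.20 ± 0.02, adjusted p = 1.36e-07; 0.32 under quantile normalisation). Psmd4, the ubiquitin receptor Rpn10, had 6369 and 6113 with PC sg2, 6192 and 5989 with PC sg5, and 5350.2 and 5458 in the control (0.19 ± 0.03, adjusted p = 2.63e-05). Both genes had all 4 PC libraries above both controls. Psmd1, the larger scaffold Rpn2, had 10165 and 9652 with PC sg2, 10372 and 10063 with PC sg5, and 10124 and 9956 in the control. Its libraries overlapped fully (log2 fold change 0.0028 ± 0.03, adjusted p = 0.939; 95% confidence interval -0.06 to 0.06).

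The genes of the lid were nearly all higher. Of its 8 genes, 7 were higher and none was lower by limma (at an unadjusted p under 0.05 as well), the median log2 fold change was 0.32, and all 8 had every PC library above both controls. Psmd6, a scaffold subunit (Rpn7), rose most, with 4907 and 5032 normalised counts with PC sg2, 4922 and 5087 with PC sg5, and 3728 and 3468 in the control (log2 fold change 0.47 ± 0.04, adjusted p = 2.35e-10). Psmd14, the deubiquitinase Rpn11 that removes ubiquitin from the substrate, had 6491 and 6523 with PC sg2, 6719 and 6398 with PC sg5, and 5211 and 5248 in the control (0.32 ± 0.03, adjusted p = 1.10e-08). Psmd12, Psmd8 and Psmd11 were higher by 0.42, 0.34 and 0.32 on the log2 scale, and Psmd7, the inactive partner of Psmd14, and Psmd13 by 0.19 and 0.18. The smallest difference was that of Psmd3 (Rpn3), with 8128 and 8369 with PC sg2, 7992 and 8268 with PC sg5, and 7839.6 and 7844 in the control, which did not pass the threshold (0.06 ± 0.03, adjusted p = 0.0691) but did without PC sg5 replicate 1 (0.07, adjusted p = 0.0339) and with the scaling that leaves out the 50 most abundant genes (0.11, adjusted p = 0.00306).

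The 3 chaperones of the base, which bind pairs of ATPases during assembly and leave before the particle is complete, did not move together. Psmd5, the chaperone of the pair Psmc1 and Psmc2, had 5614 and 5664 normalised counts with PC sg2, 5655 and 5776 with PC sg5, and 4729.7 and 4714 in the control (log2 fold change 0.27 ± 0.03, adjusted p = 2.00e-07), with every PC library above both controls. Psmd10 (gankyrin), the chaperone of the pair Psmc4 and Psmc5, had 1489.8 and 1500.1 with PC sg2, 1476 and 1595 with PC sg5, and 1597 and 1739 in the control (-0.14 ± 0.05, adjusted p = 0.0293). Its call was lost by limma with the scaling that leaves out the 50 most abundant genes (-0.09, adjusted p = 0.136) and without the intensity trend (adjusted p = 0.107). DESeq2 did not call it either (adjusted p = 0.0524). The highest PC library and the lower control of Psmd10 differed by a few counts, and the call was lost without PC sg2 replicate 1 (-0.14, adjusted p = 0.0561), PC sg5 replicate 1 (-0.11, adjusted p = 0.0811) or control replicate 2 (-0.08, adjusted p = 0.376). Psmd9, the chaperone of the pair Psmc3 and Psmc6, was higher by 0.17 (adjusted p = 0.00719), a call lost without control replicate 1 (0.16, adjusted p = 0.0592). Psmc3ip, which is no subunit, had 633 to 810.1 normalised counts in the PC libraries and 673 and 735 in the control, with a log2 fold change of 0.02 ± 0.08 (adjusted p = 0.799).

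Set side by side, most cap genes were higher and the core genes were mixed. Of the 17 genes of the 19S particle, 14 were higher (82.4%), 1 was lower (5.88%) and 2 did not pass the threshold, with a median log2 fold change of 0.27. Of the 14 genes of the 20S core, 6 were higher (42.9%), 4 were lower (28.6%) and 4 did not pass, with a median of 0.01. Among all genes tested, 34.3% were higher and 33.6% lower, and among those at least as abundant as Psmc3ip, 47.3% and 37.3%. The core joins 2 unlike classes, with medians of -0.05 for the alpha subunits and 0.27 for the beta subunits. The summed normalised counts of the 17 cap genes were 138963 and 138182 with PC sg2, 140013 and 137766 with PC sg5, and 115144 and 112978 in the control, a ratio of 1.22 between the PC and control means. The corresponding sums of the 14 core genes were 83982 and 84519 with PC sg2, 85555 and 84068 with PC sg5, and 85415 and 83918 in the control, a ratio of 0.998. The cap sums separated the PC libraries from the controls, while the core sums overlapped. Single genes weigh on both sums. Psmb1 alone averaged 8451 normalised counts in the PC libraries and 11887 in the control, which offsets increases elsewhere in the core. In the cap, Psmc5 averaged 10701 in the PC libraries and 5843 in the control, and Psmc2 averaged 11953 and 6962.

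The ratio of the cap sum to the core sum does not depend on the size factor of a library. This ratio was 1.65 and 1.63 with PC sg2, 1.64 and 1.64 with PC sg5, and 1.35 and 1.35 in the control. By class, the PC mean over the control mean was 1.34 for the ATPase ring, 1.20 for the lid, 1.10 for the rest of the base, 1.05 for the beta subunits and 0.937 for the alpha subunits. As a share of all normalised counts, the 31 subunit genes together took 0.449% to 0.456% in the PC libraries and 0.379% to 0.388% in the control. On that scale the core genes took 0.169% to 0.173% in the PC libraries and 0.161% to 0.165% in the control and did not overlap, unlike their summed normalised counts. The sums give long and abundant genes more weight, and no test was made of the class summaries.

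**Figure D3:**
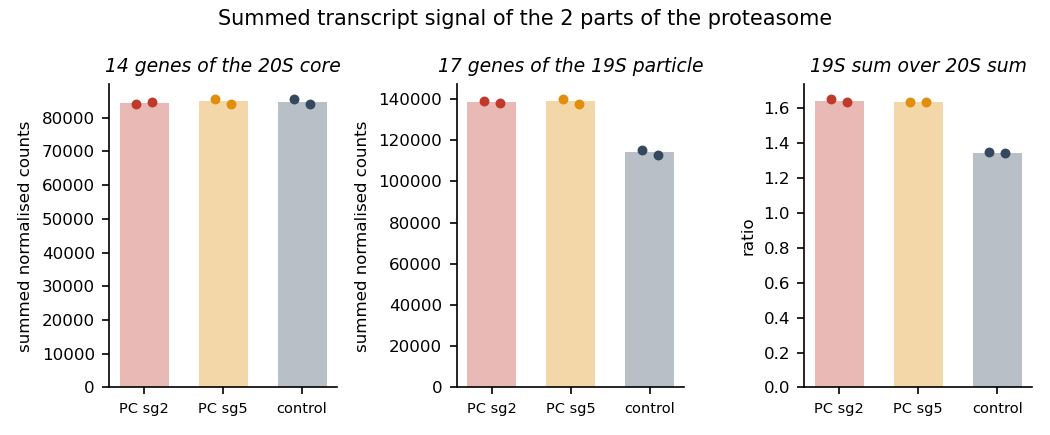
Summed normalised counts of the 14 core genes (left) and the 17 cap genes (middle), and the cap sum divided by the core sum (right), with a point per library and bars at the mean of the 2 libraries of a guide. The core sums overlap between groups, the cap sums are higher in all 4 PC libraries, and the ratio is 1.63 to 1.65 with a PC guide and 1.35 in the control.

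No gene of the proteasome differed past the threshold between the guides. With PC sg2, 22 genes were higher and 5 lower, against a background of 32.9% and 31.6% of all genes (64.5% either way); with PC sg5, 21 were higher and 3 lower, against 32.6% and 31.8% (64.5% either way). Both comparisons share the control libraries, so their likeness is not independent evidence. Side by side, the log2 fold changes with PC sg5 and with PC sg2 were 0.86 and 0.89 for Psmc5, 0.78 and 0.78 for Psmc2, 0.48 and 0.47 for Psmd6, -0.35 and -0.37 for Psma2, and -0.48 and -0.50 for Psmb1. Tested directly, PC sg5 against PC sg2 gave a call for 0 of the 35 genes, while 0.242% of all genes passed. By limma the smallest adjusted p was 0.325, and 2 genes had an unadjusted p under 0.05; edgeR and DESeq2 on the recovered reads also called 0 genes, with 2 genes each at an unadjusted p under 0.05. The 2 genes in the limma fit were Psmb3, with a difference of 0.09 (95% confidence interval 0.0071 to 0.17), and Psmc3ip, at -0.23 (-0.42 to -0.05), both named after their values were seen. Among the 31 subunits the largest difference between the guides was 0.09, and the 95% confidence intervals over all 35 genes reached 0.06 to 0.18 to each side. Pcx itself had 713 and 716 normalised counts with PC sg5, against 316 and 375 with PC sg2.

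Levels of different genes can be set side by side only per length. The length taken was that of the longest transcript tagged as principal in the annotation, or of the longest coding one where none was tagged. By that length, Psmb6 was the highest of the subunits, with 10554 normalised counts per kilobase in the PC libraries and 8699 in the control. Psma2 was the lowest, with 1127 in the PC libraries and 1444 in the control. Per kilobase of all annotated exons, Psmc5 was highest in the PC libraries at 7677, against 4192 in the control. The order therefore depends on which transcripts are taken as expressed, which was not measured.

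Counting limits touch some of these genes. The library kit does not mark the strand, and near-identical copies can share reads: 8 of the 35 genes (Psma3, Psma4, Psma5, Psmb3, Psmb5, Psmc1, Psmd2 and Psmd11) have at least 100 bases with at least 95% identity in another annotated gene, mostly processed pseudogenes. Their values are uncertain where the counting split such reads, and copies cover 98.2% of the transcript of Psmd2 and 88.4% of that of Psmb5. Of the 27 genes without such a copy, 17 were higher and 5 lower. Exons of another gene overlap 25.5% of the exon bases of Psmd9, 21.2% of Psmc3ip, 12.1% of Psmb5, 11.8% of Psmb7 and 10.1% of Psmd13, so reads of these genes and of their neighbours cannot be told apart there. The genes with the largest changes, Psmc5 (chr11:106256154-106263120, plus strand, GRCm38), Psmc2 (chr5:21785283-21803787, plus strand) and Psmb1 (chr17:15475021-15499751, minus strand), have neither a near-identical copy nor an overlapping exon.

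Genes that build, regulate or serve the proteasome included larger changes than those of the subunits, with log2 fold changes of -1.85 to 1.50. Counted once each, 35 related genes from 7 lists had a row; 23 were higher, 9 lower and 3 not past the threshold with both guides against the control, beside 34.3% of all genes tested that were higher and 33.6% that were lower. Among the 5 chaperones and maturation factors of the core, 4 were higher, of which Psmg1 (log2 fold change 0.18) was lost without control replicate 2 (0.16, adjusted p = 0.0566). Psmg2, which with Psmg1 guides the alpha ring, had 3793 and 3789 normalised counts with PC sg2, 3843 and 3743 with PC sg5, and 1725 and 1706 in the control (log2 fold change 1.14 ± 0.04, adjusted p = 1.42e-16). Psmg3, from another such pair, had 1539 and 1590.4 with PC sg2, 1472 and 1605 with PC sg5, and 698 and 654 in the control (1.20 ± 0.06, adjusted p = 9.38e-14). In both genes the PC libraries were far above the controls, although the alpha subunits themselves were mostly lower or not past the threshold. Pomp, the maturation factor of the core, missed the threshold at a log2 fold change of 0.09 (adjusted p = 0.0574), but passed it in 6 of 16 alternatives, among them without PC sg2 replicate 1 (0.10, adjusted p = 0.0480), PC sg5 replicate 1 (0.10, adjusted p = 0.0398) or control replicate 2 (0.14, adjusted p = 0.0182); without control replicate 1 it was 0.0310 (adjusted p = 0.621). Of the remaining cap genes, the ubiquitin receptor Adrm1 was higher by 0.26 (adjusted p = 4.04e-07) and Sem1, a small lid subunit, by 0.12 (adjusted p = 0.00317), a call lost without the intensity trend (adjusted p = 0.0666).

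The immunoproteasome genes fell, in contrast to their constitutive counterparts. Psmb8 had 558 and 566 normalised counts with PC sg2, 563 and 624 with PC sg5, and 1854 and 2005 in the control (log2 fold change -1.74 ± 0.07, adjusted p = 1.68e-15). Psmb10 had 1608 and 1547 with PC sg2, 1555 and 1569 with PC sg5, and 2932 and 3024 in the control (-0.92 ± 0.05, adjusted p = 9.30e-14), and Psmb9 fell by 1.85 on the log2 scale. All PC libraries were below both controls in the 3 genes. The mean ratio of Psmb8 to Psmb5 normalised counts was 0.154 in the PC libraries and 0.623 in the control, that of Psmb10 to Psmb7 was 0.186 in the PC libraries and 0.441 in the control, and that of Psmb9 to Psmb6 was 0.0158 in the PC libraries and 0.0697 in the control. These ratios are not corrected for length, so they compare groups and not the amounts of both genes. Lyz2, the one leukocyte marker with a row, was lower in the same libraries, and its part in this result was not tested; Ptprc and Cd3e had no row. Overlapping exons cover 14.7% of the exon bases of Psmb8.

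**Figure D4:**
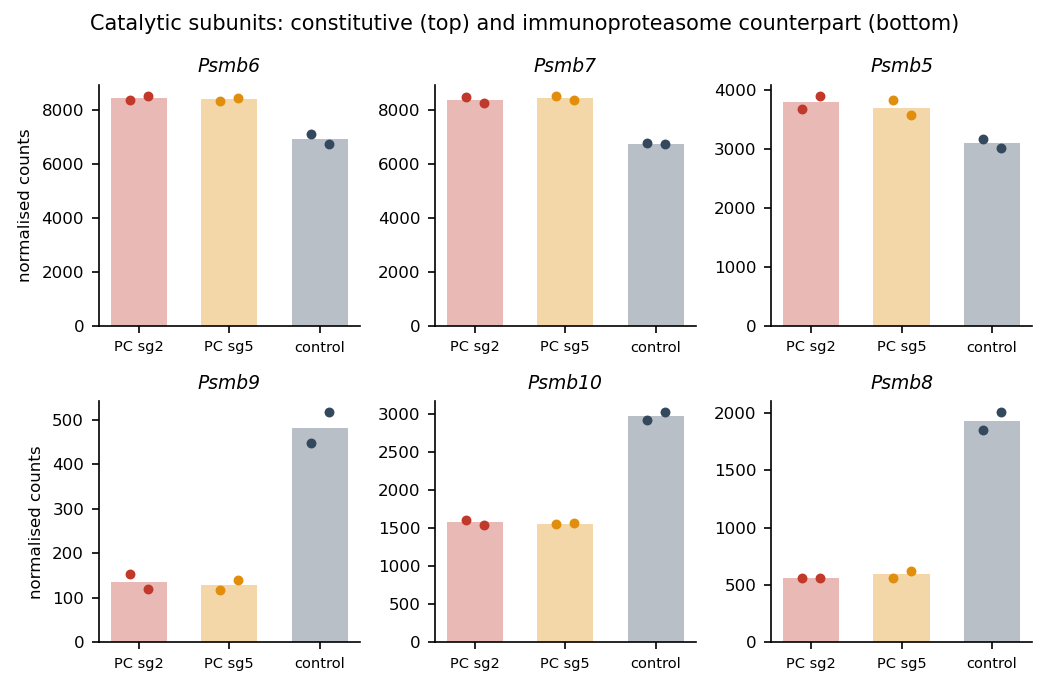
Normalised counts (vertical axes, from 0) of the 3 active-site genes of the constitutive core (top) and of the immunoproteasome subunit that can take each place (bottom), with a point per library and bars at the mean of the 2 libraries of a guide. The PC libraries are above both controls in the top row and below both in the bottom row.

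Of 5 regulators of the core, 2 were higher, 2 lower and 1 not past the threshold, beside 34.3% of all genes tested that were higher and 33.6% that were lower. Psme1 and Psme2, which form the interferon-inducible activator PA28 alpha beta, fell by 1.14 (adjusted p = 2.84e-16) and 0.57 on the log2 scale. Psme3, which forms the nuclear activator PA28 gamma, rose by 0.75 (adjusted p = 4.83e-15), and Psmf1, which encodes the inhibitor PI31, by 0.54 (adjusted p = 1.71e-10). For Psme4, the activator PA200, the log2 fold change was 0.04 (adjusted p = 0.250), and 0.08 (adjusted p = 0.0133) with the scaling that leaves out the 50 most abundant genes.

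Of 12 proteasome-associated enzymes and shuttle factors, 11 were higher, beside 34.3% of all genes tested and 47.3% of those at least as abundant as Psmc3ip. The exception, Ubqln2, did not pass the threshold (log2 fold change 0.04), but did with the scaling that leaves out the 50 most abundant genes (0.08, adjusted p = 0.00964). Zfand2a, which encodes a stress-induced protein bound to the proteasome, had 4735 and 4656 normalised counts with PC sg2, 4662 and 4384 with PC sg5, and 1618 and 1636 in the control (1.50 ± 0.04, adjusted p = 1.59e-18). The shuttle factor Rad23b, which carries ubiquitinated proteins to the cap, had 19304 and 19436 with PC sg2, 18553 and 18459 with PC sg5, and 10281 and 10293 in the control (0.88 ± 0.02, adjusted p = 3.60e-18). Both genes had PC libraries far above the controls. Overlapping exons cover 18.3% of the exon bases of Ddi2 and a larger share of those of Usp14, and both counted among the higher genes.

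Genes listed under transcription control, most of them known to act on proteasome genes or their regulator NRF1, moved in both directions: 4 of 6 were higher and 2 lower. Of all genes tested, 34.3% were higher and 33.6% lower. Nfe2l1, the gene of NRF1, had 24683 and 24787 normalised counts with PC sg2, 23835 and 23594 with PC sg5, and 19191 and 19646 in the control (log2 fold change 0.32 ± 0.02, adjusted p = 4.52e-11). Its relative Nfe2l2 was higher by 0.43 and the protease gene Ddi2, whose product cleaves NRF1, by 0.55. Ngly1, which encodes the enzyme that removes sugar chains from NRF1, fell by 1.08 (adjusted p = 2.07e-12), with 777 and 827 normalised counts with PC sg2, 805 and 750.3 with PC sg5, and 1596 and 1739 in the control. Vcp, whose product extracts NRF1 from the endoplasmic reticulum, fell by 0.15, a call lost under quantile normalisation (-0.05, adjusted p = 0.0784). Akirin2, on this list but known for bringing proteasomes into the nucleus, rose by 0.90 (adjusted p = 3.32e-15). NRF1 is activated after translation, and its protein was not measured here.

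Of 3 genes that supply or activate ubiquitin, 1 was higher and 2 were lower, beside 34.3% and 33.6% of all genes tested. Uba1, the main activating enzyme, fell by 0.24 (adjusted p = 5.76e-09) and the polyubiquitin gene Ubb by 0.23 (adjusted p = 1.06e-08) on the log2 scale, while Rps27a, which encodes ubiquitin fused to a ribosomal protein, was higher by 0.19. Their sizes depended on the scaling: under quantile normalisation the log2 fold changes were -0.07 for Uba1, -0.05 for Ubb and 0.39 for Rps27a, all still past the threshold.

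**Figure D5:**
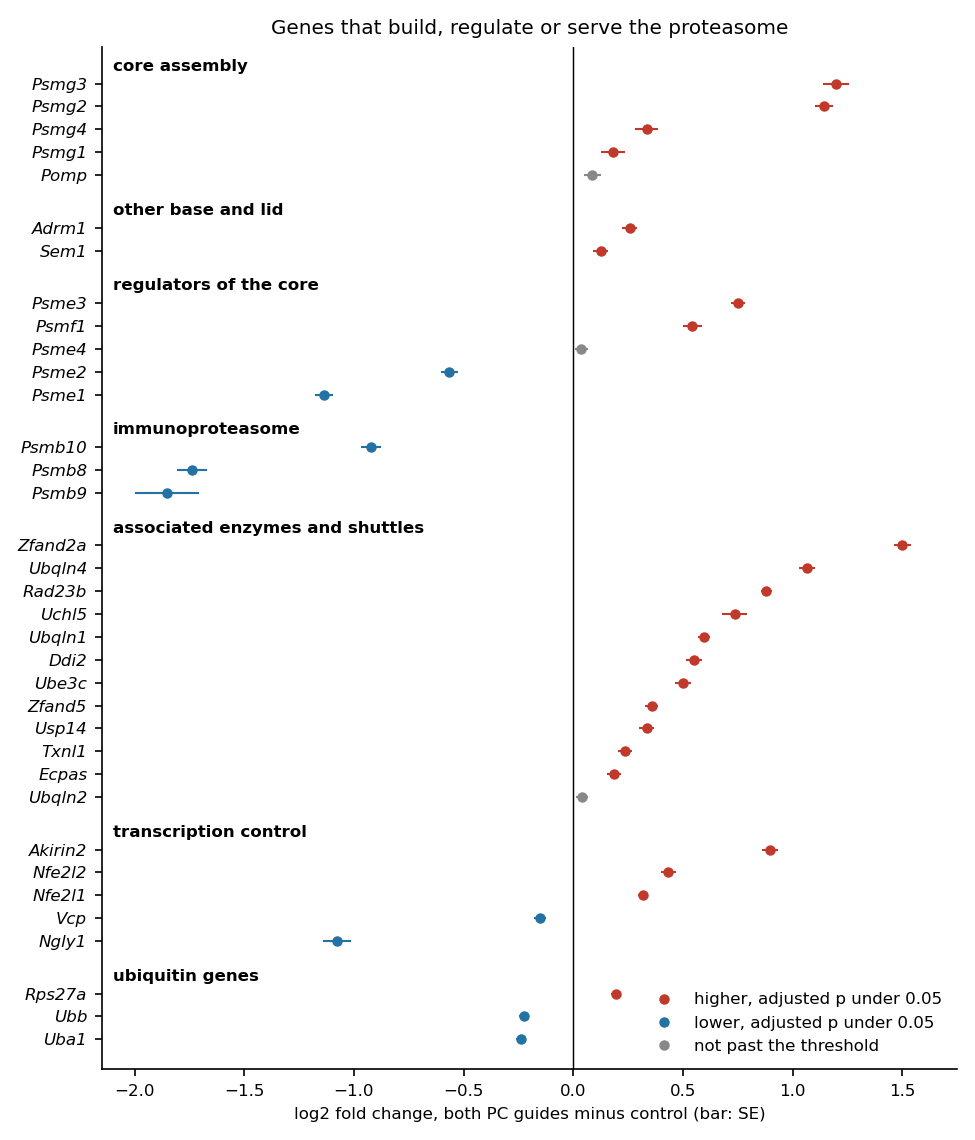
Log2 fold changes of both PC guides against the control (points) with their standard errors (bars) for 35 genes that build, regulate or serve the proteasome, grouped by list; red is higher, blue lower and grey not past the threshold. Zfand2a, Psmg3 and Psmg2 lie farthest to the right, and the immunoproteasome genes Psmb9 and Psmb8 farthest to the left.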

How the data were processed

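Tools in the submitters' processing notes are DESeq2, featureCounts, STAR, Trimmomatic and bcl2fastq 2.17, with the build GRCm38; settings, annotation and use of strand are not stated. The signal values, as deposited, are read counts divided by a size factor per library, for 16540 genes. In every library 100% of values above 0 were whole multiples of 1 step (tolerance 0.01), which gave the recovered reads. The depth sets a floor of 3 reads at 2.18 to 6.41 normalised counts per library, far below every proteasome gene. IDs were matched to GENCODE M21, with a symbol for 16491 and none for 49.

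A gene entered the fit if 2 or more libraries had 10 or more normalised counts (16526, with 14 removed). The 3 groups were fitted in 1 limma model (version 3.58.1, R 4.3.3) of log2(normalised count + 1) with an intensity trend, 3 residual degrees of freedom and 17.3 prior ones (median), two-sided, with Benjamini-Hochberg adjustment over all genes tested. Contrasts set both PC guides or each of them against control, or compared PC sg5 with PC sg2. Fold changes are on that log2 scale. The code was tested on simulated data with known changes. Alternatives included edgeR 4.0.16 and DESeq2 1.42.0 on the recovered reads (11424 and 10604 genes called for both PC guides against control, against 11222 by limma), other scalings and filters, and each library left out. The floor covers counting error only.

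The member genes, their classes, the lists of related genes and the naming rule were chosen with earlier results of these data known. That rule gives full values for Psmb5, Psmb6, Psmb7, Psmd4, Psmd14 and the highest and lowest log2 fold change of each class. For related lists it names the 2 smallest p plus Nfe2l1, Adrm1, Psme4, Psmf1 and Pomp, without asking for values by library. Values by library of Psmc2, Psma7 and some related genes, among them Ngly1, were added after their values were seen. The same holds for the genes whose calls depended on single libraries. A few genes planned for the related and marker lists are not reported here and enter no count of those lists.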

Additional observations from a re-analysis of the deposited data

How the results depend on the processing

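Over 16 alternatives, 24 of the 35 proteasome genes and 29 of the 35 related genes kept both direction and side of the threshold. For both guides together the count of called genes was 24 to 29, and 26 to 28 with 1 library left out. It was 28 (22 higher, 6 lower) under quantile normalisation and with edgeR, 26 (22 higher, 4 lower) with DESeq2 and 24 (21 higher, 3 lower) without the intensity trend. Scaling without the 50 most abundant genes gave 27, with 24 higher and 3 lower, which moves the split between directions by over 10 points; the median of all genes was then 0.03, and 0.05 under quantile normalisation. Same-numbered libraries did not deviate together (correlations of their deviations -0.02 to 0.03 over the 3 pairs of groups), and with the replicate block the count was 29. Counts ranged from 24 to 29 for PC sg2, from 22 to 27 for PC sg5, and were 0 throughout for PC sg5 against PC sg2. The class medians shifted with the scaling: under quantile normalisation they were -0.0804 for the alpha subunits, 0.24 for the beta subunits, 0.27 for the ATPase ring, 0.16 for the rest of the base and 0.29 for the lid, and without the 50 most abundant genes -0.0060, 0.32, 0.35, 0.23 and 0.36 in the same order. With 1 library left out they ranged from -0.0777 to -0.0292 for the alpha subunits, 0.24 to 0.31 for the beta subunits, 0.26 to 0.35 for the ATPase ring, 0.18 to 0.20 for the rest of the base and 0.31 to 0.33 for the lid. Among genes not past the threshold, the sign turned for Psma4 (0.0104 without the 50 most abundant genes), for Psmd1 with 1 library left out (-0.0158 to 0.0215) and for Psmc3ip with 1 library left out (-0.0397 to 0.0871); the cause was not tested. With 2 controls the spread of the control is poorly known, and depth limited none of these genes, whose lowest mean was 713 normalised counts.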
